A study of Mus musculus with 6 samples.

Results

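The 50 genes described here encode ligands, receptors, Smad proteins, Smad regulators, latency proteins and antagonists of the bone morphogenetic protein (BMP) and transforming growth factor beta (TGF-beta) pathways. Their peaks are the regions that the deposited table names with exactly one of these symbols. This gave 242 peaks at 42 of the 50 genes, out of 101253 peaks in the table and 18038 genes named there. The rule uses gene symbols and no measured value. Genomic DNA came from ventricles of male C57BL/6 mice with the septum kept and the atria removed, while the tissue label says left ventricle. Animals were untreated and were taken 1 day (P1) or 14 days (P14) after birth, with 3 libraries per age that the submitters call biological replicates. Whether a library pooled several animals is not given in the sources used here. Methylated fragments were captured with a methyl-CpG binding domain (MBD-seq), so a value is a read count per region and not a percentage of methylated sites.

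BMP, activin and TGF-beta ligands are secreted dimers that bring type I and type II receptor kinases together at the cell surface. The type I receptor then phosphorylates Smad proteins, which enter the nucleus with the common partner Smad4 and regulate transcription, while Smad6 and Smad7 inhibit the signal. TGF-beta is secreted in a latent form held in the matrix by latent TGF-beta binding proteins, and antagonists such as noggin and chordin bind BMPs outside the cell. In the heart, BMP signalling acts in the specification of heart muscle, in valve formation and in trabecular growth, and TGF-beta acts on fibroblasts and matrix. Methylated CpG is the base pair step to which the capture domain binds, and CpG-rich promoters are mostly unmethylated in somatic tissue.

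Start sites of the pathway genes lay mostly outside peaks, and their sequences show how many capture targets each one holds. RefSeq (GRCm38.p6) gave 43 windows for 35 of the 50 genes, each from 250 bases before to 50 bases after a transcription start. Peaks overlapped 2 of the 43 windows (4.65%), against 7.58% of all 32851 windows. The pathway windows were richer in the dinucleotide CG, which reads the same on both strands, with a median of 27 per window against 7 over all windows. Of the 28 pathway windows with 20 or more CpG, 0 overlapped a peak, and over all windows that rich the share was 1.1%. The share was 18.1% over all windows with 5 to 9 CpG. The sequences below are both pathway windows that overlapped a peak and the pathway window with the most CpG. CpG is in capitals.
Bmp10 start window, chr6:87428744-87429043, + strand, 3 CpG, 107 bases under a peak: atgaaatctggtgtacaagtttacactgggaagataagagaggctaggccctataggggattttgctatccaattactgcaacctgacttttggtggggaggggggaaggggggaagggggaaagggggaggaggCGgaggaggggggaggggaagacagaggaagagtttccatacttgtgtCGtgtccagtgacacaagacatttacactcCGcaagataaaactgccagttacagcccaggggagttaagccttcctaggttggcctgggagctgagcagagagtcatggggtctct
Bmpr1b start window, chr3:141982215-141982514, - strand, 5 CpG, 232 bases under a peak: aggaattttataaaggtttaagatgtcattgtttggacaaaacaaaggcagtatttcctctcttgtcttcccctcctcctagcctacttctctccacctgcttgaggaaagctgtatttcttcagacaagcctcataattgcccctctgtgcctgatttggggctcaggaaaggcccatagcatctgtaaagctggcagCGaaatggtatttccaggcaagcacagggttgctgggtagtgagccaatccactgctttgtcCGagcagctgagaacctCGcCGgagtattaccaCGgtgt
Ski start window, chr4:155222486-155222785, - strand, 59 CpG, nearest peak 8740 bases away: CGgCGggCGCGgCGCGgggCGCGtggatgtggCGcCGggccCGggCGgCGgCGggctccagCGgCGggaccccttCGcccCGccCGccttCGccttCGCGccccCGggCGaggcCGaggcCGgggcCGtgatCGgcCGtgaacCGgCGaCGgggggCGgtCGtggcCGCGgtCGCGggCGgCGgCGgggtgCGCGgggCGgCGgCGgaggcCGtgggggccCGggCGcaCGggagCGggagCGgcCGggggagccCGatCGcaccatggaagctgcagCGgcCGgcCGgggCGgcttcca
The Bmp10 and Bmpr1b windows hold few CpG, and the Ski window holds CpG along most of its length. This count of letters does not give the methylation of any site.

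Library facts bear on every value below, and positions are given in the build GRCm38. Libraries held 16284216 to 21512072 reads, and their replicates differed from each other beyond counting noise (chi-square per degree of freedom over peaks, 1.38 to 8.48). The share of reads that fell in peaks was 11.59% to 13.39% in the P1 libraries and 16.99% to 31.31% in those of P14. The highest share was that of P14 replicate 1. In P1 replicate 1, 2392 peaks were empty, against 30 and 37 in replicates 2 and 3 of that age. The main comparison therefore scaled the libraries within peaks, with edgeR's quasi-likelihood test over all peaks, Benjamini-Hochberg adjustment and a threshold of 0.05. A peak that passed is called gained where it was higher at P14 and lost where it was lower. CPM are read counts of a peak relative to the scaled total of reads in peaks of its library. Scaled instead to the long stretches between peaks, the median log2 change of all peaks moved from -0.0 to 1.10, so gained and lost are relative to other peaks. Bulk DNA does not separate a change in the share of a cell type from a change of methylation within cells.

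Of the 242 pathway peaks, 230 passed the filter on low counts, 1 was gained and 7 were lost. These 8 made up 3.48% of tested pathway peaks, where 2.52% of all 96775 tested peaks were called. Lost peaks were 2.42% and gained peaks 0.105% of all tested peaks. The gained peak lay at Ltbp3, and the lost peaks lay at Bmpr1b (2 peaks), Bmpr1a, Acvr1, Bmp5, Smad1 and Ltbp1. The other tested pathway peaks leaned slightly upward. Over the 230, 135 (58.7%) were higher at P14, against 49.4% of all peaks, and the median log2 change was 0.06, against -0.0. The libraries of the 2 ages did not overlap in 33 pathway peaks (14.3%), 20 of them higher and 13 lower at P14, where 11.9% of all tested peaks did not overlap. Changes were not spread evenly below 0. A set of 12 pathway peaks had log2 changes from -2.41 to -1.28, and the next lowest value was -0.60. They were thinly covered, with 10.5 to 24 reads per library on average against a median of 26.9 for all tested pathway peaks. Such peaks, below -1 on the log2 scale, were 5.22% of pathway peaks and 4.77% of all peaks. At the other end, 7 pathway peaks were above 1, which was 3.04% of pathway peaks and 1.53% of all peaks. All regions had a mean of at least 10 reads per library. A thin peak could thus enter through the reads of the age at which it was higher. The effect of this floor on both ends was not tested.

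**Figure D1:**
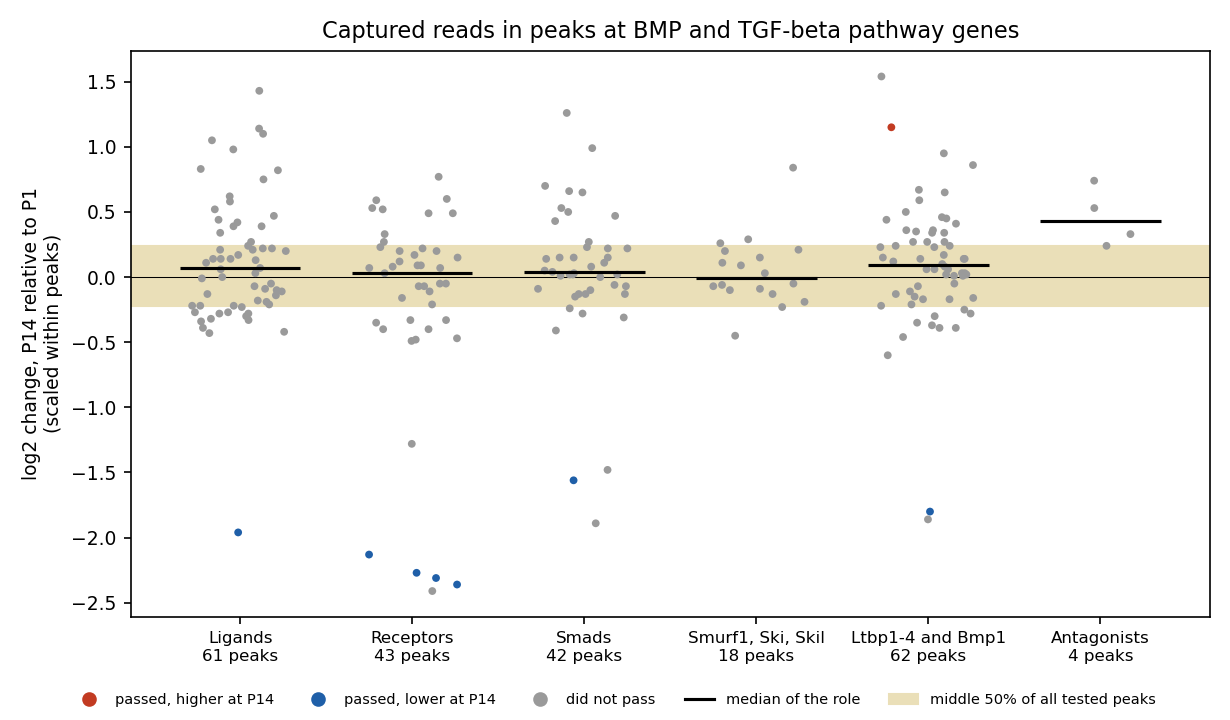
Each point is 1 tested peak, placed by the role of its gene on the horizontal axis and by its log2 change at P14 relative to P1, scaled within peaks, on the vertical axis. Black lines are medians of a role, from -0.01 to 0.43, the band holds the middle 50% of all tested peaks, and the blue points, peaks that were lost, lie between -1.56 and -2.36 with a few grey points among them.

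Among the 17 ligand genes, 16 had peaks, and 1 of 61 tested peaks passed. It lies at Bmp5, a BMP expressed in the developing heart (ENSMUSG00000032179, chromosome 9, 75877556 to 75878292, inside the gene span, 103 kb from its 5′ end). The peak contained 40, 13 and 14 reads in the P1 libraries and 14, 12 and 10 in those of P14. Scaled within peaks, all P1 libraries lay above all P14 libraries, but P1 replicate 1 was far above the other P1 libraries, with 20.6 CPM beside 5.87 and 6.42. The mean fell from 11 ± 8.35 to 2.89 ± 0.857 CPM (SD, n = 3), or 3.9-fold (log2 change -1.96, SE 0.50, adjusted p = 0.0407). Without P1 replicate 1 the log2 change was -1.12 and did not pass (adjusted p = 0.488), and of the fits that left out 1 library only the one without P1 replicate 2 kept the call.

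Ligand peaks that were higher at P14 did not pass. At Gdf10, a divergent member of the ligand family (chromosome 14, 33931694 to 33933031), reads were 18, 16 and 14 at P1 and 109, 58 and 41 at P14. All P14 libraries were above all P1 libraries after scaling, with means of 7.64 ± 1.47 and 15 ± 0.163 CPM (SD, n = 3), a log2 change of 0.98 (SE 0.29, adjusted p = 0.0784). At Tgfb1, the TGF-beta ligand best known for its action on fibroblasts and immune cells, a peak 18 kb from the 5′ end (chromosome 7, 25704556 to 25705481) contained 3, 2 and 7 reads in the P1 libraries and 43, 19 and 12 in those of P14. The ages did not overlap there either, and the log2 change was 1.43 (SE 0.56, adjusted p = 0.328). All 4 tested Tgfb1 peaks had values above 0.

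Bmp10 encodes a ligand made by the heart itself, in trabecular muscle before birth and in the atria afterwards. The peak over its start, whose window is printed above (ENSMUSG00000030046, chromosome 6, 87428937 to 87429800), had 28, 24 and 18 reads in the P1 libraries and 70, 39 and 24 in those of P14. After scaling the ages overlapped, with 11.2 ± 3.09 and 9.51 ± 0.741 CPM (SD, n = 3), and the log2 change was -0.22 (SE 0.30, adjusted p = 1). Bmp7, a ligand with broad expression in the embryo, had the most peaks of the ligands, 20 over its span. Of 19 tested, 11 had values above 0, the range was -0.28 to 1.14, and none passed. Bmp6, an endothelial and hepatic BMP, held the densest ligand peak, with 16 CPM per kb over both ages (chromosome 13, 38498548 to 38500038). Its log2 change was -0.28 (SE 0.24, adjusted p = 1), and that of its neighbour with the smallest p among uncalled lower ligand peaks was -0.42 (SE 0.24, adjusted p = 0.925).

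Receptor genes held 4 of the 7 lost peaks and no gained one. Of 11 receptor genes 10 had peaks, and 4 of 43 tested peaks passed (9.3%), where 2.52% of all peaks did. The ages did not overlap in 12 of the 43 (27.9%), beside 11.9% of all peaks. A further 8 receptor genes, among the 80 further pathway genes described below, did not share this. Of their 17 tested peaks 0 passed, and in 5.88% the ages did not overlap. The median log2 change of the 43 receptor peaks was 0.03, and most of those that did not pass lay around 0. All 4 that passed lay at type I receptor genes, 2 of them at Bmpr1b.

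Bmpr1a encodes the type I receptor ALK3, through which BMPs act in heart muscle. Its lost peak (ENSMUSG00000021796, chromosome 14, 34435614 to 34437154, inside the gene span, 67 kb from the 5′ end) contained 33, 31 and 26 reads in the P1 libraries and 7, 14 and 13 in those of P14. The 3 P1 libraries were close to each other, and even unscaled reads of the 2 ages did not overlap. The mean fell from 14.3 ± 2.55 to 3.1 ± 1.92 CPM (SD, n = 3), 5.15-fold (log2 change -2.36, SE 0.44, adjusted p = 0.0245). The call held without P1 replicate 1 (log2 change -2.22, adjusted p = 0.0369), without both replicates 1 (-1.63, adjusted p = 0.0333) and without P1 replicates 2 or 3 or P14 replicates 2 or 3. It did not hold without P14 replicate 1 (-1.76, adjusted p = 0.203).

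Bmpr1b encodes ALK6, a BMP receptor known mainly from cartilage and ovary. A lost peak stood 1.66 kb inside the 5′ end of its RefSeq span (ENSMUSG00000052430, chromosome 3, 142167560 to 142168299), with 36, 16 and 19 reads in the P1 libraries and 9, 8 and 15 in those of P14. It fell from 11.5 ± 6.15 to 2.92 ± 2.21 CPM (SD, n = 3), 4.36-fold (log2 change -2.13, SE 0.51, adjusted p = 0.0345). The other lost peak lay 124 kb from that end (chromosome 3, 142044792 to 142045552), with 40, 12 and 12 reads in the P1 libraries and 7, 14 and 6 in those of P14. There unscaled reads overlapped, and P1 replicate 1 alone held most of the P1 reads. That peak fell from 10.5 ± 8.74 to 2.26 ± 1.33 CPM (SD, n = 3), 4.84-fold (log2 change -2.27, SE 0.58, adjusted p = 0.0411). Without P1 replicate 1 the values were -1.60 (adjusted p = 0.169) and -1.33 (adjusted p = 0.509), so neither passed. With 1 library left out, the first passed only without P14 replicate 3 and the other without P1 replicate 3 or P14 replicate 2.

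The Bmpr1b start window printed above belongs to an internal start, 188 kb from the 5′ end of the span, and its peak (chromosome 3, 141981409 to 141982446) differed from the lost ones. It contained 9, 16 and 23 reads in the P1 libraries and 39, 38 and 23 in those of P14. After scaling the ages overlapped, with 7.47 ± 2.97 and 7.87 ± 2.25 CPM (SD, n = 3), a log2 change of 0.03 (SE 0.38, adjusted p = 1). A further Bmpr1b peak just beyond it, outside the rule for named peaks and picked after its value was seen, had 21, 16 and 10 reads in the P1 libraries and 0, 7 and 9 in those of P14 (log2 change -2.41, SE 0.74, adjusted p = 0.104). Peaks of 1 gene thus had values from -2.41 to 0.03.

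Acvr1 encodes ALK2, a type I receptor for BMPs and activins. Its lost peak (ENSMUSG00000026836, chromosome 2, 58445546 to 58446161) lies 277 bp outside the gene span, past its 3′ end and 121 kb from its 5′ end. The peak contained 24, 13 and 15 reads in the P1 libraries and 7, 6 and 8 in those of P14. Every P1 library held more reads than any P14 library, also before scaling. The peak fell from 8.37 ± 3.49 to 1.81 ± 0.985 CPM (SD, n = 3), 4.97-fold (log2 change -2.31, SE 0.53, adjusted p = 0.0306). The call did not hold without P1 replicate 1 (log2 change -1.92, adjusted p = 0.125), and with 1 library left out it held only without P14 replicate 3.

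Receptor peaks that were higher at P14 did not pass, those with the smallest p included. Acvr2b, a type II receptor for activins and myostatin, had 59, 92 and 56 reads in the P1 libraries and 401, 161 and 117 in those of P14 in its peak on chromosome 9 (119425892 to 119428951). The scaled ages did not overlap, and the log2 change was 0.53 (SE 0.24, adjusted p = 0.565). All 6 Acvr2b peaks had values above 0, from 0.07 to 0.53. Acvrl1, the endothelial receptor ALK1, to which BMP9 and BMP10 bind, held the densest receptor peak, with 17.1 CPM per kb (chromosome 15, 101136865 to 101137912). Its reads were 32, 33 and 26 at P1 and 195, 70 and 52 at P14, which did not overlap after scaling (log2 change 0.59, SE 0.26, adjusted p = 0.523). Acvr1b, the activin receptor ALK4, had 10 peaks, the most of the receptors, of which 5 were above 0 and none passed. The 6 peaks of Tgfbr2, the type II receptor of TGF-beta, did not pass, nor did the 1 tested peak of Tgfbr1, its type I partner.

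**Figure D2:**
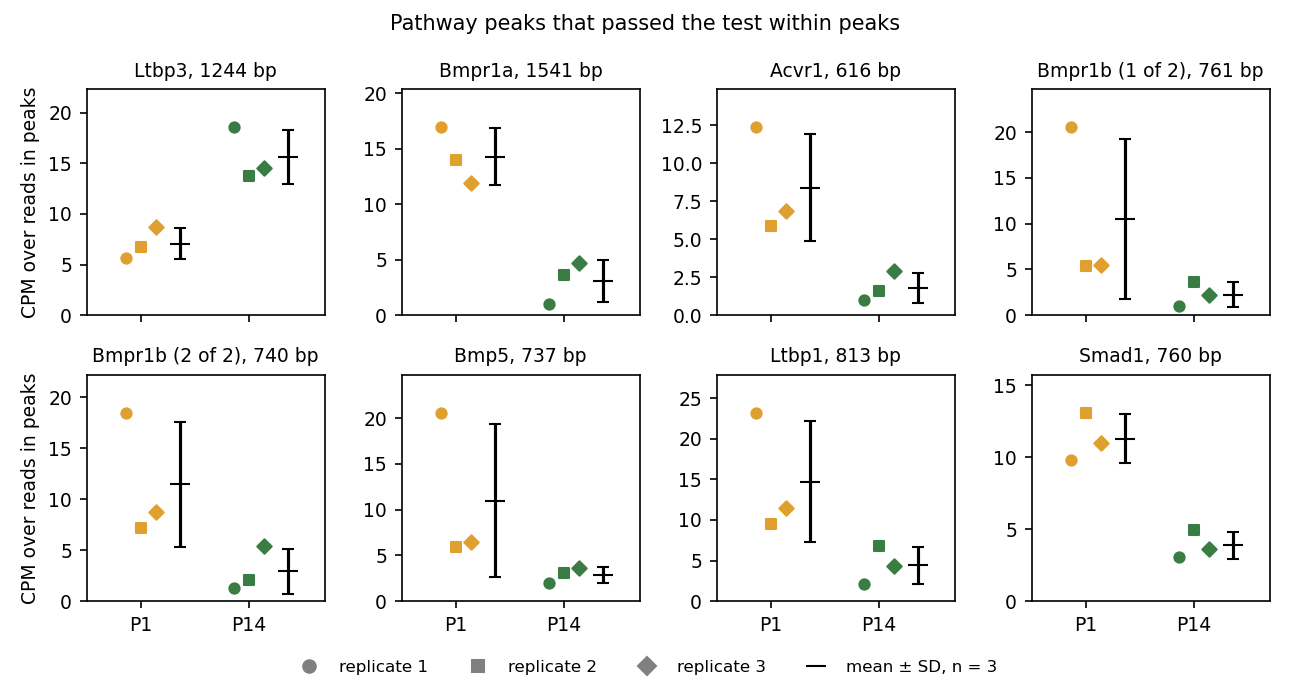
Scaled CPM over reads in peaks (vertical axis) at P1 and P14 in the 8 pathway peaks that passed, with 1 symbol per replicate and black marks for the mean ± SD of 3 libraries. The circle of P1 replicate 1 stands highest of the P1 libraries in 6 of the 7 lost peaks, Smad1 being the exception, and the Ltbp3 peak is the 1 that rose.

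Of 8 Smad genes 6 had peaks, and 1 of 42 tested peaks passed (2.38%). It lies at Smad1, which transmits BMP signals, 2.65 kb from the 5′ end of the gene (ENSMUSG00000031681, chromosome 8, 79396394 to 79397153). Reads were 19, 29 and 24 at P1 and 22, 19 and 10 at P14. Unscaled reads overlapped, while scaled values did not and were close within each age. The peak fell from 11.3 ± 1.67 to 3.87 ± 0.959 CPM (SD, n = 3), 2.96-fold (log2 change -1.56, SE 0.36, adjusted p = 0.0314). It was the 1 lost pathway peak in which P1 replicate 1 was not the highest P1 library, and it passed without that library (log2 change -1.63, adjusted p = 0.049) or P14 replicate 2 (adjusted p = 0.0491). Left out in turn, P14 replicates 1 and 3 gave adjusted p of 0.244 and 0.0703, and P1 replicates 2 and 3 gave 0.131 and 0.0783. Leaving out both replicates 1 gave 0.0638, so it did not pass in these 5 fits.

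Smad5, the close relative of Smad1 that also transmits BMP signals, had 1 peak (chromosome 13, 56737239 to 56738005), just outside the threshold. It contained 28, 13 and 14 reads in the P1 libraries and 9, 13 and 8 in those of P14, which did not overlap after scaling (log2 change -1.89, SE 0.51, adjusted p = 0.0544). DESeq2 gave an adjusted p of 0.0443 and limma-voom 0.00914 for the same peak. Smad9, the third Smad of the BMP branch, held the densest Smad peak, 16.2 CPM per kb (chromosome 3, 54793768 to 54794824), with a log2 change of -0.07 (SE 0.26, adjusted p = 1). Smad3, which transmits TGF-beta and activin signals, had 20 peaks, the most of the Smads. Of 19 tested, 14 were above 0 and none passed. The highest was the one nearest the 5′ end, 2.73 kb from it (chromosome 9, 63754694 to 63755837), with 5, 4 and 8 reads in the P1 libraries and 44, 29 and 16 in those of P14. The ages did not overlap there (log2 change 1.26, SE 0.47, adjusted p = 0.277). The inhibitory Smad6 had a peak with 15, 35 and 9 reads in the P1 libraries and 170, 58 and 43 in those of P14 (chromosome 9, 63953165 to 63954338). The P1 libraries were spread and reached into the P14 range (log2 change 0.99, SE 0.35, adjusted p = 0.226).

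None of the 18 tested peaks of the Smad regulators passed, nor did any have an unadjusted p under 0.05. These genes are Smurf1, a ubiquitin ligase that marks Smads and receptors for degradation, and the corepressors Ski and Skil. Smurf1 had the most peaks, 13, of which the widest (chromosome 5, 144876565 to 144881500) contained 125, 121 and 119 reads in the P1 libraries and 598, 233 and 174 in those of P14. After scaling the ages overlapped, with 57.9 ± 5.64 and 68.9 ± 12.5 CPM (SD, n = 3), a log2 change of 0.26 (SE 0.22, adjusted p = 1). The other named Smurf1 peaks had log2 changes of 0.84, -0.09 and -0.19, and the lowest Ski peak one of -0.45 (SE 0.31, adjusted p = 1).

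The 4 latent TGF-beta binding protein genes and Bmp1, whose product is a matrix metalloprotease that cleaves procollagen and chordin, had 62 tested peaks with 1 gained and 1 lost (3.23%). The gained peak lies inside Ltbp3, 10.4 kb from its 5′ end (ENSMUSG00000024940, chromosome 19, 5750639 to 5751882). Ltbp3 protein helps to fold, secrete and store latent TGF-beta. The peak contained 11, 15 and 19 reads in the P1 libraries and 134, 53 and 40 in those of P14, and every P14 library was above every P1 library. It rose from 7.05 ± 1.54 to 15.6 ± 2.64 CPM (SD, n = 3), 2.23-fold (log2 change 1.15, SE 0.30, adjusted p = 0.0439). The value stayed between 1.01 and 1.34 with any 1 library left out, but the peak passed in none of those fits, nor in DESeq2 (adjusted p = 0.0813). All 5 tested Ltbp3 peaks had values above 0, from 0.02 to 1.15. The widest of them (chromosome 19, 5755911 to 5760425), picked after its value was seen, had 66, 83 and 65 reads in the P1 libraries and 532, 160 and 122 in those of P14, with no overlap of ages after scaling (log2 change 0.67, SE 0.25, adjusted p = 0.276).

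The lost peak of the role lies inside Ltbp1, which tethers latent TGF-beta to the matrix, 236 kb from the 5′ end (ENSMUSG00000001870, chromosome 17, 75240599 to 75241411). It contained 45, 21 and 25 reads in the P1 libraries and 15, 26 and 12 in those of P14. Unscaled reads overlapped and P1 replicate 1 stood above the others. The peak fell from 14.7 ± 7.4 to 4.39 ± 2.33 CPM (SD, n = 3), 3.49-fold (log2 change -1.80, SE 0.43, adjusted p = 0.0333), and without P1 replicate 1 it did not pass (-1.31, adjusted p = 0.159). With 1 library left out it passed without P1 replicate 2 or P14 replicate 2 only. A second Ltbp1 peak, 110 kb from the 5′ end (chromosome 17, 75115562 to 75116293), had 32, 8 and 22 reads in the P1 libraries and 7, 13 and 13 in those of P14, overlapped between ages and did not pass (log2 change -1.86, SE 0.56, adjusted p = 0.0924). With the peak enrichment of each library as a covariate, its sign turned to 0.14. The other tested Ltbp1 peaks ran up to 0.45.

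Ltbp2, which binds elastic fibres rather than latent TGF-beta, had 21 peaks, the most of all pathway genes. Of these 14 were above 0, the range was -0.60 to 0.46, and none passed. The lowest was the densest peak of the role, with 14.3 CPM per kb (chromosome 12, 84861032 to 84861947, log2 change -0.60, SE 0.29, adjusted p = 0.66). Ltbp4, which organises elastic fibres in lung and vessels, had the peak with the highest value of all 230 (chromosome 7, 27329344 to 27330499). It contained 4, 5 and 4 reads in the P1 libraries and 56, 19 and 14 in those of P14, with no overlap of ages (log2 change 1.54, SE 0.51, adjusted p = 0.142). Bmp1 had 7 of 10 peaks above 0 and none that passed.

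**Figure D3:**
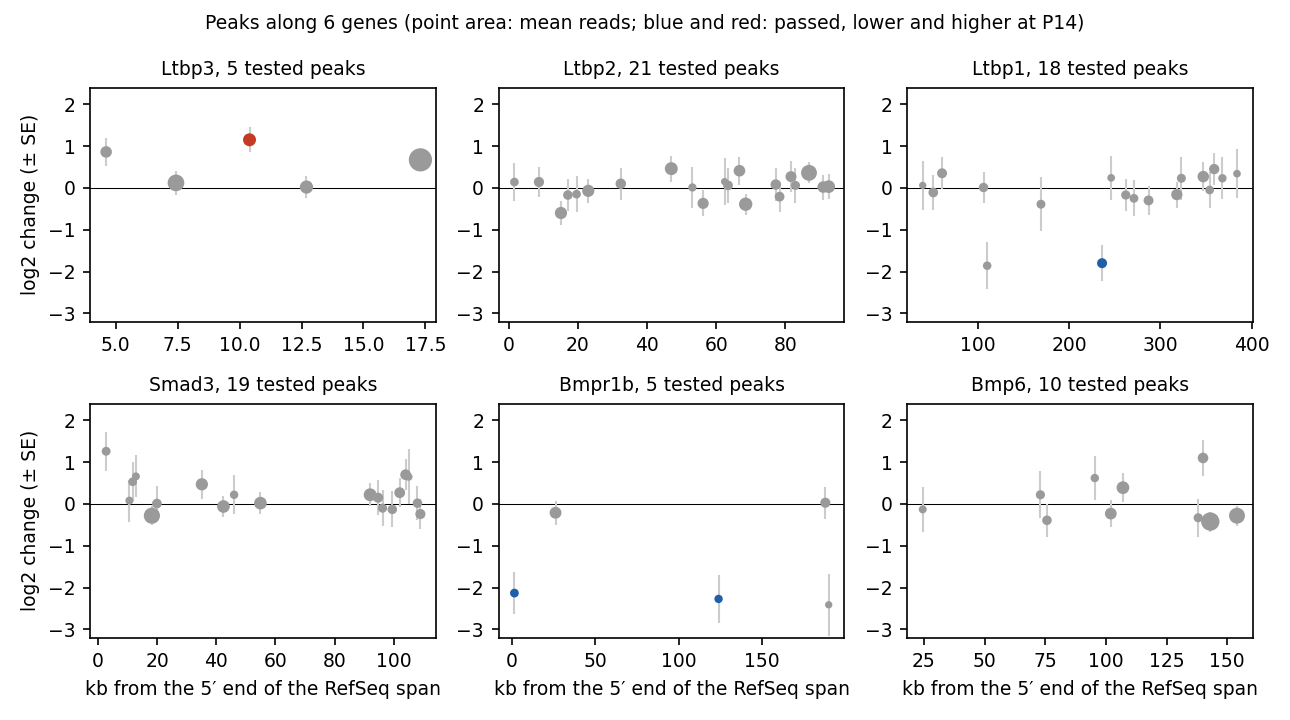
Log2 change at P14 relative to P1 ± SE (vertical axis) of each tested peak against its distance in kb from the 5′ end of the RefSeq gene span (horizontal axis) in 6 pathway genes, with point area for mean reads. The peaks of Ltbp2 and most of those of Smad3 lie around 0, and the highest Smad3 peak (1.26) is the one nearest the 5′ end. Near -2 lie 2 of the 18 Ltbp1 peaks and 3 of the 5 Bmpr1b peaks.

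The antagonist genes held few peaks, and their spans are short, so the count cannot decide whether the role is poor in peaks. Nog, Grem1 and Fst, which had none, span 1.92, 9.97 and 6.73 kb. Per 100 kb of span, Chrd had 27.4 peaks and Bambi 10.6, where receptor genes with peaks had 1.12 (Acvr2a) to 29.7 (Acvrl1). These rates leave out genes without peaks and cannot decide it either, since 1 peak in a short gene gives a high rate. Bambi had 1 peak over 9.39 kb. Only Chrd and Bambi of the 5 had any peaks, with 4 in all, each higher at P14 (0.24 to 0.74) and none past the threshold. Chrd encodes chordin, which binds BMPs outside the cell, and Bambi a membrane pseudoreceptor without a kinase. The Chrd peak on chromosome 16 (20737969 to 20739222) contained 16, 19 and 9 reads in the P1 libraries and 100, 34 and 33 in those of P14, with no overlap of ages after scaling (log2 change 0.74, SE 0.34, adjusted p = 0.597).

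With reads summed over all peaks of a gene, Bmpr1a and Bmpr1b fell and no pathway gene rose, among 41 pathway genes tested. Over all 17688 genes tested in this way, 2.84% passed, 2.35% lower and 0.498% higher at P14. CPM of a gene are relative to the scaled total of these sums, so they are not totals of its peak CPM. Bmpr1a contained 52, 42 and 38 reads in the P1 libraries and 58, 38 and 29 in those of P14 over 2 peaks. It fell from 26.6 ± 5.63 to 12.3 ± 2.07 CPM (SD, n = 3; log2 change -1.14, SE 0.28, adjusted p = 0.0306). Bmpr1b contained 134, 86 and 87 reads in the P1 libraries and 128, 100 and 90 in those of P14 over 5 peaks. It fell from 62.1 ± 20 to 33.1 ± 10.8 CPM (SD, n = 3; log2 change -0.95, SE 0.25, adjusted p = 0.0392). Both sums contain the lost peaks described above, so they give no separate support. The other Bmpr1a peak had a log2 change of -0.05, and the other Bmpr1b peaks had -2.41, -0.21 and 0.03. Unscaled sums of both genes overlapped between ages. Neither call held without P1 replicate 1 (adjusted p = 0.124 and 0.259) or P14 replicate 1 (0.172 and 0.241) or P14 replicate 2 (0.0696 and 0.0892), and that of Bmpr1b did not hold without P1 replicate 3 (0.0597). The sums of Smad5 (-1.86, adjusted p = 0.0587), Ltbp3 (0.52, adjusted p = 0.0729) and Acvr2b (0.37, adjusted p = 0.0986) did not pass. Of the 41, 24 were above 0 and 16 below, with a median of 0.12, against 0.01 for all genes.

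Counts and directions of calls changed with the scaling. Scaled to the stretches between peaks, 22 of 41 pathway genes were gained and 0 lost, where 39.9% of all genes passed, 39.5% gained and 0.407% lost. The median log2 change was then 1.18 for pathway genes and 1.11 for all genes. At the level of single peaks 39 of 230 were gained and 0 lost (17.0%), beside 9.88% of all peaks called in this way, 9.76% gained. Ltbp3 was among them (log2 change 2.31, adjusted p = 0.0105), as were Gdf10 (2.10, adjusted p = 0.0171) and the named peaks at Tgfb1, Acvr2b, Acvrl1, Smad3, Smad6, Smurf1, Ltbp4 and Chrd. All 7 lost peaks were still below 0 and none passed, Bmpr1a being nearest (-1.37, adjusted p = 0.0739). The sum of Bmpr1a became -0.08 (adjusted p = 0.883), and that of Bmpr1b turned to 0.07 (adjusted p = 0.895).

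**Figure D4:**
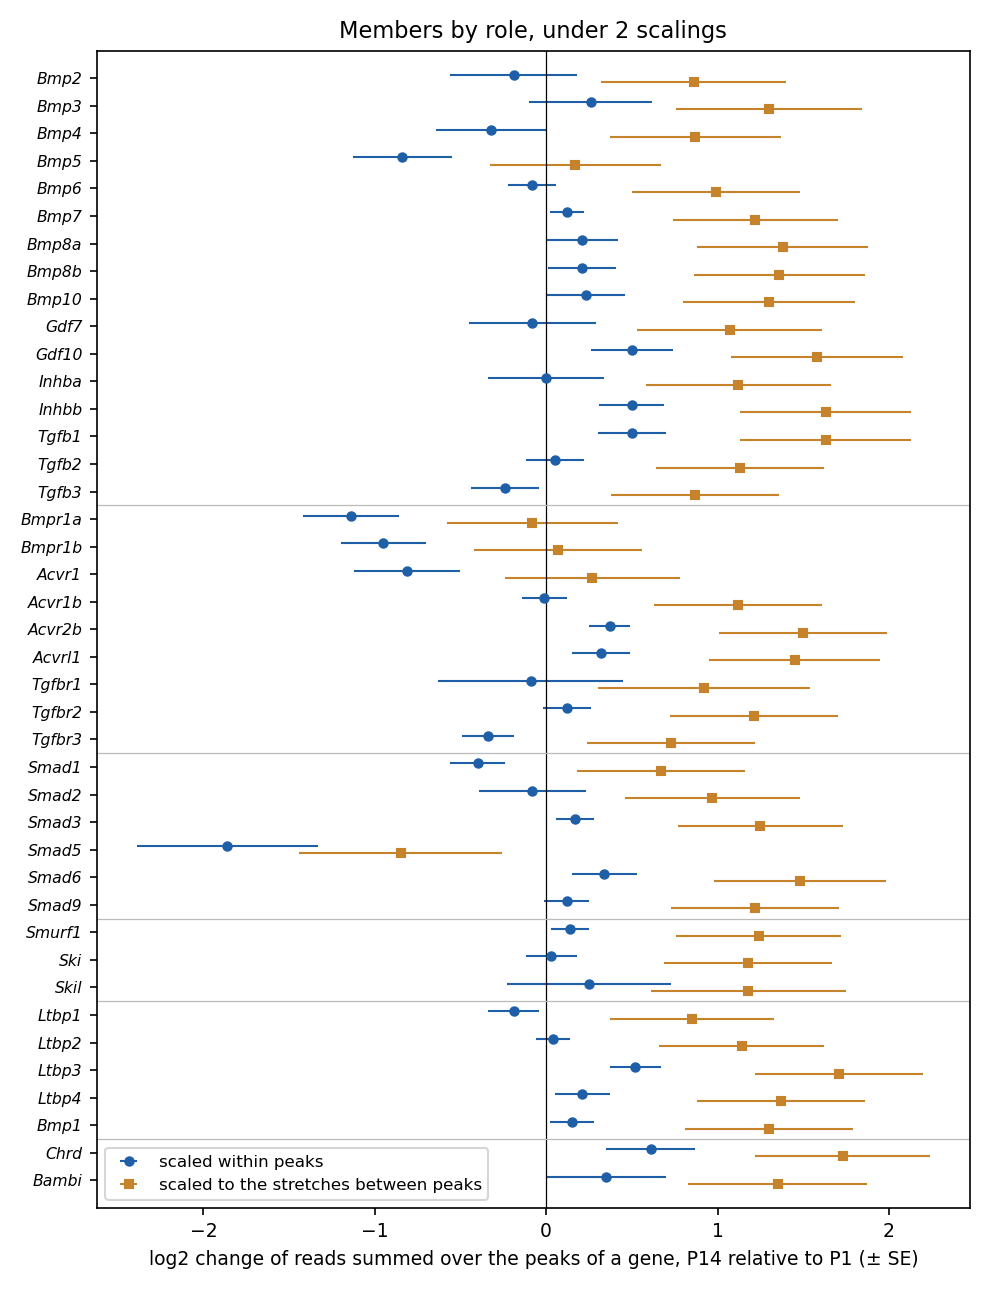
Log2 change at P14 relative to P1 ± SE (horizontal axis) of reads summed over the peaks of each of 41 pathway genes, grouped by role, with circles for scaling within peaks and squares for scaling to the stretches between peaks. Squares lie about 1 log2 unit to the right of circles, so Bmpr1a and Bmpr1b move from about -1 to about 0.

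A value that needs no scaling between libraries is the read density of a peak divided by that of the stretches touching it in the same library. It still carries the peak enrichment of each library. Read density in all peaks over that in all stretches was 2.955 to 3.487 at P1 and 4.621 to 10.234 at P14. Over 221 pathway peaks with a touching stretch, the median of this local enrichment was 1.99 at P1 and 3.4 at P14. It was higher at P14 in 206 peaks (93.2%) and lower in 15. Over all 95581 peaks with a touching stretch the medians were 1.96 and 3.55 and the share higher at P14 was 93.1%. Of the 7 lost peaks 6 had a lower mean at P14 by this measure, and in 3 of these 6 the ages overlapped. The measure uses the same peak reads as the calls, so it gives no separate support. At Bmpr1a it was 1.90 to 2.35 in the P1 libraries and 0.654 to 1.19 at P14, so the region stood at the level of its surroundings at P14 and the ages did not overlap. At Acvr1 it was 1.68 to 3.26 and 0.67 to 1.26, again without overlap. The lost Bmpr1b peak near the 5′ end did not overlap either (2.30 to 5.33 and 1.03 to 2.16). The ages overlapped at the other lost Bmpr1b peak (1.59 to 4.51 and 0.816 to 1.84), at Bmp5 (2.77 to 7.11 and 2.63 to 4.67) and at Ltbp1 (3.03 to 6.40 and 2.01 to 3.64). At Smad1 it went the other way, from a mean of 6.96 to 8.62, with overlapping ages (5.75 to 8.77 and 4.23 to 13.4). At the gained Ltbp3 peak it was 0.916 to 2.27 at P1 and 2.82 to 4.75 at P14.

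**Figure D5:**
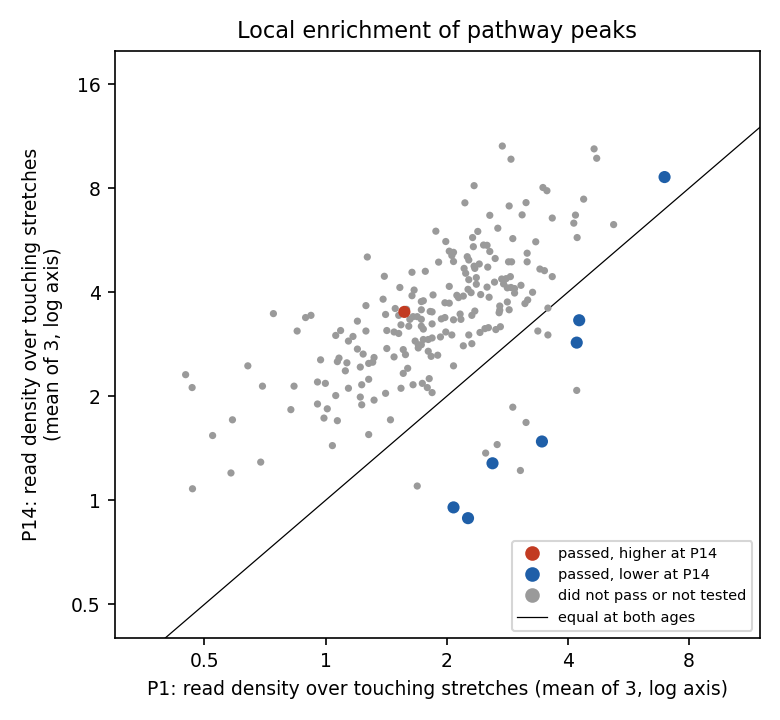
Each point is the local enrichment of 1 pathway peak, its reads per base over those of its touching stretches, as the mean of 3 libraries, at P1 (horizontal, log axis) and P14 (vertical, log axis), with the line of equal values. Most of the 221 peaks lie above the line, and 6 of the 7 lost peaks (blue) are among the 15 below it.

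P1 replicate 1 and P14 replicate 1 moved with the calls. P1 replicate 1 was the highest P1 library in 6 of 7 lost pathway peaks, in 42.2% of all tested pathway peaks and in 82.5% of all lost peaks of the table. Without P1 replicate 1, 2 pathway peaks were lost, Bmpr1a and Smad1, and 0 gained. Without P14 replicate 1, no pathway peak passed, and 0 of all 96775 peaks did, while the log2 changes of the 7 lost pathway peaks then ran from -1.90 to -1.34. Of all peaks 0.383% passed without P1 replicate 1. Leaving out P1 replicates 2 or 3, or P14 replicates 2 or 3, left 3, 2, 4 and 3 lost pathway peaks and 0 gained, where 0.944%, 0.935%, 1.34% and 1.53% of all peaks passed. Without both replicates 1, the Bmpr1a peak was the 1 pathway peak called, and 0.335% of all peaks were. DESeq2 called 8 lost pathway peaks and 2.8% of all peaks, and limma-voom 1 gained and 11 lost pathway peaks and 4.45% of all peaks. Without the filter on low counts 1 was gained and 7 were lost, beside 2.73% of all peaks. Without TMM factors 1 was gained and 1 lost, beside 0.8% of all peaks. Among peaks with a mean of 30 or more reads, 0 of 102 pathway peaks and 0.389% of all peaks passed. In the fit over all regions, with the enrichment covariate and with the replicate block, 0 peaks of the table passed (0.0%).

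Of 80 further genes of these pathways, 58 had peaks, and 6 of 274 tested peaks were lost and 0 gained (2.19%). The median log2 change was -0.01. Bmper, a secreted regulator of BMP activity that binds BMPs and chordin, had 2 lost peaks. One (chromosome 9, 23319790 to 23320742) contained 34, 18 and 14 reads in the P1 libraries and 16, 6 and 8 in those of P14 and fell 4.78-fold (log2 change -2.26, SE 0.47, adjusted p = 0.0257), and the other fell 3.18-fold. Peaks at Fstl1, a secreted follistatin-like protein (4.63-fold), and Id4, one of the Id genes that BMP signals induce (5.62-fold), were lost. So were peaks at Itgav, an integrin subunit that activates latent TGF-beta (4.43-fold), and Trim33, a ubiquitin ligase that binds Smads (4.98-fold). None of these 6 passed without P1 replicate 1 or when scaled to the stretches.

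The remaining 8 pathway genes, Gdf6, Bmpr2, Smad4, Smad7, Smurf2, Nog, Grem1 and Fst, had no peak under their name. They include the common partner Smad4, the BMP type II receptor Bmpr2 and the antagonists noggin, gremlin and follistatin. Stretches between peaks cover their RefSeq spans, with 4.44 to 15.4 reads per kb per library, where all stretches together held 5.56 to 6.74. A peak without a gene name lies over the Smad4 span. The start windows of Bmpr2, Smurf2 and Grem1 hold 23, 43 and 28 CpG. Acvr2a, an activin type II receptor gene, had 1 peak, which did not pass the filter on low counts. Its reads were 43, 8 and 6 at P1 and 4, 11 and 5 at P14, so P1 replicate 1 alone was high.

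The tissue label could not be checked by expression, and the peaks of cell type marker genes are given for comparison. Scaled CPM summed over 75 tested peaks of cardiomyocyte markers were 701 to 798 at P1 and 602 to 655 at P14, without overlap. Of these peaks 10 were lost and 0 gained (13.3%), where 2.52% of all tested peaks were called. In 40.0% of them the ages did not overlap, against 11.9% of all tested peaks. The fibroblast, endothelial, smooth muscle and leukocyte lists overlapped between ages, and the erythroid list did not. Fibroblast markers had 233 to 292 CPM at P1 and 227 to 248 at P14 with 0 peaks called, endothelial markers 789 to 910 and 853 to 903 with 1 lost, and smooth muscle markers 488 to 527 and 482 to 646 with 0 called. Leukocyte markers had 151 to 164 and 148 to 169 CPM. Erythroid markers, with only 6 tested peaks and 0 called, had 33.5 to 38.4 at P1 and 38.7 to 54.9 at P14. The part of cell composition in the pathway results was not tested.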

How the data were processed

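The authors' deposited table gives whole-number read counts per region for the 6 MBD-seq libraries, not divided by depth or length. Per the submitters' processing notes, BWA, MACS, bedtools and edgeR 3.2.4 were used with GRCm38 (mm10). Peak settings, duplicate handling and sequencing batches are not stated there. Of its 221524 lines 213957 are distinct regions, all with a mean of at least 10 reads per library. Its regions alternate between short peaks (101253, median 852 bp) and long stretches, a reading made here from borders, gene names and read density (density alone for 17543 regions).

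Counts of all peaks, or of peaks summed by gene symbol, were compared between ages by the quasi-likelihood F test in edgeR 4.0.16 (R 4.3.3). TMM factors and read totals came from peaks, or in the gene test from the sums by gene symbol. The filter was filterByExpr on whole-library sizes, age was the only term, and p-values were adjusted over all features. A standard error is the log2 change divided by the square root of F. In simulated counts the test recovered 8 of 100 peaks changed 2-fold and 68 of 100 changed 4-fold, among 96775 peaks. Over 17688 genes it recovered 53 and 93 of 100. Alternatives used DESeq2 1.42.0, limma-voom (limma 3.58.1), other scalings and filters, a covariate, a replicate block and left-out libraries. P-values set the difference between ages against the spread between these libraries, which is estimated partly from all features together.

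Named peaks, by role, are those past the threshold, the 2 smallest p in each direction, the densest, and those over a RefSeq start window. Named genes are those past the gene test and the one with most peaks. A peak belongs to the gene the table names, and 14 of the 242 are also named for another gene. Of the 242, 232 lie inside the RefSeq span. Exons and introns were not assigned. The pathway genes and lists were chosen with earlier results of these data known.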

Additional observations from a re-analysis of the deposited data

How the results depend on the processing

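With all settings as reported, 1 pathway peak was gained and 7 lost, 2 pathway genes were lost by summed peaks, and 6 peaks of the further pathway genes were lost. Scaling to the stretches between peaks gave 39 gained and 0 lost pathway peaks, 22 gained and 0 lost genes, and 39 gained and 0 lost peaks of further genes, and turned the Bmpr1b sum to 0.07. No TMM factor left 1 lost pathway peak and 2 of further genes. DESeq2 gave 0 gained pathway peaks, and limma-voom 11 lost pathway peaks and 13 of further genes. The fit over all regions, the filter at a mean of 30 reads and the enrichment covariate each gave 0 gained and 0 lost peaks in both lists, and the covariate 0 lost genes. With 1 library left out, gained pathway peaks were 0 to 0, lost ones 0 to 4, lost genes 0 to 2, and lost peaks of further genes 0 to 4. Without both replicates 1 these were 0, 1, 0 and 0. Same-numbered libraries did not deviate together over peaks (r = -0.045, -0.044 and 0.025). With 3 libraries per age and no batch stated, this cannot decide whether the numbers pair them. The fit with the replicate number as a block gave 0 gained and 0 lost peaks in both lists and 0 lost genes. Among the 22 named peaks that did not pass, 8 turned direction and 9 passed when scaled to the stretches. The causes were not tested. The median peak of a library held 14 to 48 reads. In the simulated counts most peaks changed 2-fold were missed, with 8 of 100 recovered. That simulation called 82 peaks, where the data gave 2440, and it varied no depth. Detection of 2-fold changes in the data may therefore differ.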
